A study of Rattus norvegicus with 6 samples.

Results

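The 10 genes described here are Adipoq, Plin1, Cidec, Cidea, Ucp1, Lep, Cfd, Lpl, Lipe and Pparg, which mark white and brown adipocytes. They were chosen by gene symbol, and all 10 were among the 17833 genes of the deposited table. Expression was compared between the pulmonary veins (PVs) of 3 rats with bilateral pulmonary vein banding (BPVB) and those of 3 sham-operated rats. All rats were wild-type Sprague-Dawley pups, operated on at postnatal day 1 and sampled at postnatal day 21, and in the sham rats no band was left on the veins. The tissue was the PV that drains the right upper lobe, so each value averages over all cells of the sample.

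Fat cells come in a white form, which stores triglyceride in 1 large lipid droplet, and a brown form, which burns fatty acids to make heat and holds many small droplets. Both forms take up fatty acids that lipoprotein lipase frees from circulating lipoproteins, and both depend on the nuclear receptor PPARγ. The fat around the thoracic vessels of rodents resembles brown fat.

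Values are FPKM, the fragments counted on a gene scaled to its length in kilobases and to the library total, which lets levels of different genes be compared. Whole fragments were worked back from these values, and library totals ranged from 23439506 to 29725808. Differences are log2 fold changes on log2(FPKM + 0.5), BPVB against sham, tested with limma over 15150 genes, those whose FPKM averaged 0.1 or more. All 10 adipocyte genes passed this filter. A gene was called when its adjusted p (Benjamini-Hochberg) was under 0.05, and a differentially expressed gene (DEG) also had an absolute log2 fold change above 1. Markers of other cells set the libraries apart as well. All 8 markers of alveolar type 2 cells were higher in the BPVB group, and 6 of 8 markers of atrial cardiomyocytes were lower.

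The adipocyte genes Adipoq, Plin1, Cidec and Cfd were higher in the BPVB group, by 2.98 to 4.43 times, and all 4 were DEGs. The brown adipocyte genes Ucp1 and Cidea and the lipases Lpl and Lipe were lower, by smaller factors, and the call of Lipe was lost in several other settings. The groups overlapped for Lep and Pparg, which were not called. Over all tested genes, 17.2% were called higher and 14.3% lower, and 2.24% were DEGs in the upward direction. The balance of higher and lower calls over all genes turned with the scaling, to 2362 higher and 2454 lower with median-of-ratios scaling. The 3 BPVB values lay above the 3 sham values in 25.2% of all tested genes, and below them in 20.5%. The median log2 fold change of the 10 adipocyte genes was 0.03, beside 0.02 for all tested genes. The list thus held genes that rose and genes that fell in equal number.

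**Figure D1:**
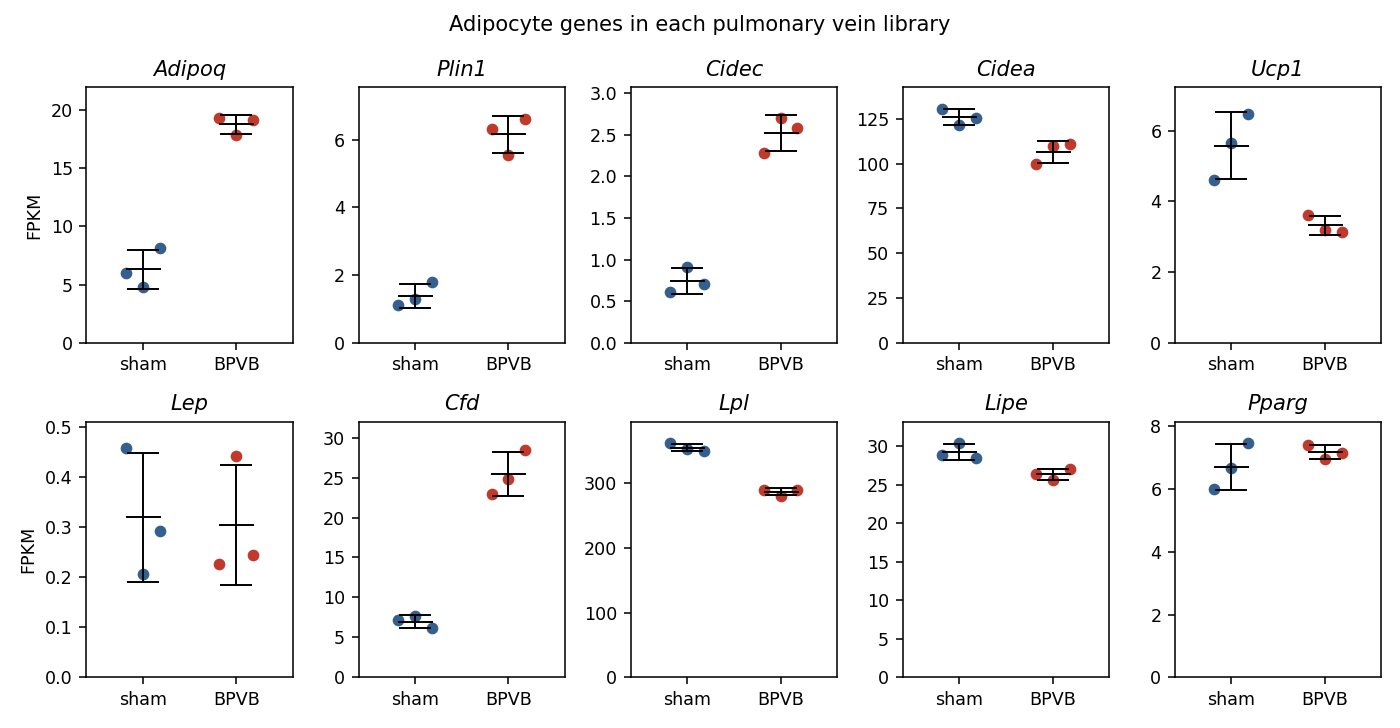
FPKM of the 10 adipocyte genes in each library. Each point is 1 library (3 sham, 3 BPVB), and bars give the mean and SD of the group. The BPVB points lie above the sham points for Adipoq, Plin1, Cidec and Cfd, below them for Cidea, Ucp1, Lpl and Lipe, and among them for Lep and Pparg.

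Adipoq (NCBI Gene 246253) encodes adiponectin, a hormone secreted by fat cells. Its FPKM was 6.03, 4.76 and 8.13 in sham replicates 1, 2 and 3 and 19.4, 17.9 and 19.1 in BPVB replicates 1, 2 and 3. All BPVB libraries were more than 2 times as high as the highest sham library, and the sham libraries varied more among themselves than the BPVB libraries did. The mean rose from 6.31 ± 1.7 to 18.8 ± 0.80 (SD, n = 3 each), a log2 fold change of 1.53 (standard error, SE, 0.15, adjusted p = 9.4e-05, limma).

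Plin1 (NCBI Gene 25629) encodes perilipin 1, the coat protein of the large droplet of mature fat cells and a gatekeeper of lipolysis. Its FPKM was 1.10, 1.28 and 1.78 in the sham libraries and 6.32, 5.54 and 6.60 in the BPVB libraries, in the order of the replicates. It had the largest rise of the 10 genes on the log2 scale (1.83, SE 0.14, adjusted p = 2.4e-05, limma), and ranked 73 of 15150 from the top. With a pseudocount of 1 the rise of Plin1 was 1.59, below the smallest rise of Cfd in any setting tried (1.71). The means of Plin1 were 1.39 ± 0.35 and 6.15 ± 0.55 (SD, n = 3 each), a ratio of 4.43.

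Cidec (NCBI Gene 500292), known as Fsp27 in mice, encodes a protein that enlarges lipid droplets by moving lipid from one to another. Its FPKM was 0.611, 0.912 and 0.709 in the sham libraries and 2.28, 2.70 and 2.58 in the BPVB libraries. The lowest BPVB value exceeded all sham values, and at least 55 fragments lay behind each. On the log2 scale this was a rise of 1.29 (SE 0.13, adjusted p = 1.3e-04, limma). The ratio of the means was 3.39, and the pseudocount lowers the log2 value of a gene at this level.

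Cfd (NCBI Gene 54249) encodes complement factor D, or adipsin, a serine protease of the alternative complement pathway that fat cells secrete in large amounts. Its FPKM was 7.14, 7.65 and 6.13 in the sham libraries and 23.0, 24.9 and 28.5 in the BPVB libraries. All BPVB values were again far above the sham values. The rise on the log2 scale was 1.80 (SE 0.099, adjusted p = 2.5e-06, limma), with means of 6.98 ± 0.78 and 25.4 ± 2.8 (SD, n = 3 each). Sham replicate 3, the highest sham library for Adipoq and Plin1, was the lowest for Cfd. For Cidec the highest was sham replicate 2 (0.912), so neither gene followed their order within the sham group. Only 122 to 150 fragments lay behind the sham values of Cfd.

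Since these 4 genes rose together and Ucp1 fell, the 250 bases before their transcription starts are shown, from RefSeq. RefSeq promoters were matched by gene number for 8 of the 10 genes. Capitals mark matches, on either strand, to the half-site of PPAR and RXR (AGGTCA), a C/EBP site (TTGCNNAA), the TATA box (TATAAA) and the CCAAT box (CCAAT), which is short and can overlap other sites.
Adipoq (GRCr8, chr11:91240170-91240419, minus strand): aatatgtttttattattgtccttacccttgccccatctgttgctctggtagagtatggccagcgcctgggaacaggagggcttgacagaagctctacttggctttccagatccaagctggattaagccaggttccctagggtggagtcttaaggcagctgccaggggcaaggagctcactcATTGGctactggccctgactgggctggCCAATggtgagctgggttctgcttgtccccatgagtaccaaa
Plin1 (GRCr8, chr1:143086149-143086398, minus strand): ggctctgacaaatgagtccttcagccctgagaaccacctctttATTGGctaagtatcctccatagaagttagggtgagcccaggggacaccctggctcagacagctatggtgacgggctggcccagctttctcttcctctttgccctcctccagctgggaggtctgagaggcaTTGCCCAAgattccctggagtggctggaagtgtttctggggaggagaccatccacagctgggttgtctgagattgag
Cidec (GRCr8, chr4:148137116-148137365, minus strand): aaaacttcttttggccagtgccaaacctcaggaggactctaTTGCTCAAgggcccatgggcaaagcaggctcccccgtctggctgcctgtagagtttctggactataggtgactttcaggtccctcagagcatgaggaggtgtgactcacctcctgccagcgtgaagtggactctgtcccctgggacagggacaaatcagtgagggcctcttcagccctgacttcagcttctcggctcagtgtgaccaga
Cfd (GRCr8, chr7:10465497-10465746, minus strand): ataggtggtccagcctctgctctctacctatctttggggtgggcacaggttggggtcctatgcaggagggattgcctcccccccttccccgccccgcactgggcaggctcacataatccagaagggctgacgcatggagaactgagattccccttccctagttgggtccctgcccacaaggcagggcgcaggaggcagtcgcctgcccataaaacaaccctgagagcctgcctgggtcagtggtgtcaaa
Ucp1 (GRCr8, chr19:41721422-41721671, minus strand): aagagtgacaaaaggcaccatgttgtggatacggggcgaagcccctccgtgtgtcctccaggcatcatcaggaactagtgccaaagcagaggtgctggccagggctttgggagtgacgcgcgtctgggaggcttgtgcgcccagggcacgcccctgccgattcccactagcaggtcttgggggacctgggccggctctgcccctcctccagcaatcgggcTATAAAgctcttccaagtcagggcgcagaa
The Adipoq window held 2 CCAAT boxes, at -42 to -38 on the strand of the gene and at -69 to -65 on the other, counted from the start. Plin1 held a C/EBP site at -77 to -70 and a CCAAT box at -207 to -203, and Cidec held a C/EBP site at -209 to -202. The Ucp1 window held a TATA box at -30 to -25. Genes that were not called held such sites too, Lep a C/EBP site at -69 to -62 and a CCAAT box at -104 to -100, and Pparg, at the second of its starts, a C/EBP site at -174 to -167 and a CCAAT box at -103 to -99. No match was found for Cfd, for Cidea, which was called lower, or at the first start of Pparg. None of the 5 windows shown held the PPAR half-site, which says only that these letters are absent from the windows. Among 33465 RefSeq promoter windows of the same length, 34.0% held the CCAAT box, 9.22% the C/EBP site, 12.9% the TATA box and 14.1% the PPAR half-site. The matches describe the sequences and do not show that a factor is bound.

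Ucp1 (NCBI Gene 24860) encodes uncoupling protein 1, the mitochondrial proton channel through which brown fat makes heat. Its FPKM was 4.60, 5.66 and 6.48 in the sham libraries and 3.63, 3.20 and 3.14 in the BPVB libraries. The groups did not overlap, although the lowest sham library stood close to the highest BPVB library. Ucp1 was 1.68 times as high in the sham group (5.58 ± 0.94 against 3.32 ± 0.26, SD, n = 3 each). It had the largest fall of the 10 genes (log2 fold change -0.66, SE 0.13, adjusted p = 0.0040, limma), on 100 to 185 fragments per library.

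Cidea (NCBI Gene 291541), a relative of Cidec, coats the small droplets of brown adipocytes. Its FPKM was 130.5, 122 and 125 in the sham libraries and 99.6, 109.7 and 111 in the BPVB libraries. The fall was small (log2 fold change -0.24, SE 0.047, adjusted p = 0.0046, limma), and the groups did not overlap. Cidea was much higher than Ucp1 in every library. The ratio of Cidea to Ucp1 was 23.1 ± 4.7 in the sham group and 32.3 ± 4.2 in the BPVB group (SD, n = 3 each), and the ratios of the groups overlapped.

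**Figure D2:**
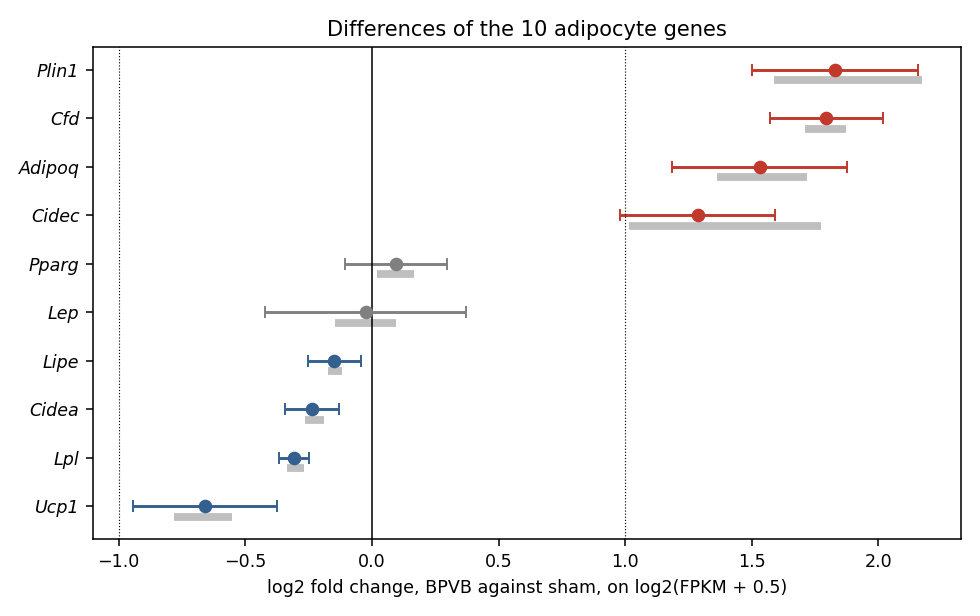
Log2 fold change (BPVB against sham, on log2(FPKM + 0.5)) of each adipocyte gene, with its 95% confidence interval from limma. Red marks genes called higher, blue genes called lower and grey genes not called, the grey bar under each point spans its values over the other settings tried, and dotted lines mark 1 and -1. Plin1, Cfd, Adipoq and Cidec lie above 1, and the other 6 genes lie between -0.66 and 0.09.

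Lpl (NCBI Gene 24539) encodes lipoprotein lipase, which is made by fat cells, cardiomyocytes and macrophages and acts on the capillary surface. It was the highest of the 10 genes, with an FPKM of 361, 353 and 350.1 in the sham libraries and 289.6, 280.3 and 289.4 in the BPVB libraries. Each BPVB library was below each sham library. This gave a log2 fold change of -0.31 (SE 0.026, adjusted p = 3.2e-05, limma), with means of 355 ± 5.8 and 286 ± 5.3 (SD, n = 3 each).

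Lipe (NCBI Gene 25330) encodes hormone-sensitive lipase, which releases fatty acids from stored lipid. Its FPKM was 28.8, 30.5 and 28.5 in the sham libraries and 26.3, 25.6 and 27.1 in the BPVB libraries. The groups did not overlap, with a difference of -0.15 on the log2 scale (SE 0.046, adjusted p = 0.037, limma). This call was lost in 7 of 16 other settings, among them each fit that left out sham replicate 1, 2 or 3 or BPVB replicate 1 or 2, where the adjusted p ranged from 0.054 to 0.12. Lipe is therefore given as lower only at the edge of the threshold.

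Pparg (NCBI Gene 25664) encodes PPARγ, the nuclear receptor that drives the formation of fat cells. Its FPKM was 6.01, 6.68 and 7.47 in the sham libraries and 7.42, 6.97 and 7.17 in the BPVB libraries, and the sham range enclosed the BPVB range on both sides. The log2 fold change was 0.09 with a 95% interval from -0.11 to 0.30 (adjusted p = 0.46, limma), which does not reach the changes of Adipoq, Plin1, Cidec or Cfd.

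Lep (NCBI Gene 25608) encodes leptin, the satiety hormone of white fat. Its FPKM was 0.460, 0.207 and 0.293 in the sham libraries and 0.228, 0.442 and 0.245 in the BPVB libraries. The groups overlapped, and 16 to 38 fragments lay behind each value. The log2 fold change was -0.03 with a 95% interval from -0.42 to 0.37 (adjusted p = 0.93, limma). The pseudocount of 0.5 exceeds the mean FPKM of Lep in both groups, so the log2 value and its interval are compressed.

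In the sham group, the order of the levels was Lpl, Cidea, Lipe, Cfd, Pparg, Adipoq, Ucp1, Plin1, Cidec and Lep. The ranges of Cfd, Pparg, Adipoq and Ucp1, which lie next to each other in this order, overlapped from neighbour to neighbour. In the BPVB group, Cfd and Adipoq stood above Pparg, and Plin1 stood above Ucp1. Only Lipe and Cfd overlapped as neighbours in this group.

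Within a library, the ratio of Adipoq to Ucp1 does not depend on the library total. It was 1.31, 0.842 and 1.26 in the sham libraries and 5.34, 5.59 and 6.09 in the BPVB libraries. The mean moved from 1.14 ± 0.26 to 5.67 ± 0.38 (SD, n = 3 each). The ratio of the droplet genes Cidea and Cidec was 175 ± 40.2 in the sham group and 42.4 ± 1.6 in the BPVB group (SD, n = 3 each), and its values did not overlap. The ratio of Adipoq to Plin1 was 5.46, 3.73 and 4.56 in the sham libraries and 3.06, 3.22 and 2.90 in the BPVB libraries, again without overlap. That of Plin1 to Cidec overlapped between the groups (1.91 ± 0.56 in sham and 2.46 ± 0.37 in BPVB, SD, n = 3 each), and so did the 95% intervals of the log2 fold changes of Adipoq (1.19 to 1.88) and Cfd (1.57 to 2.02), with that of Plin1 overlapping both. The ratio of Lpl to Lipe was 12.1 ± 0.49 in the sham group and 10.9 ± 0.16 in the BPVB group (SD, n = 3 each), without overlap. These ratios were taken from genes already known to differ, and they are given as a description with no test.

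**Figure D3:**
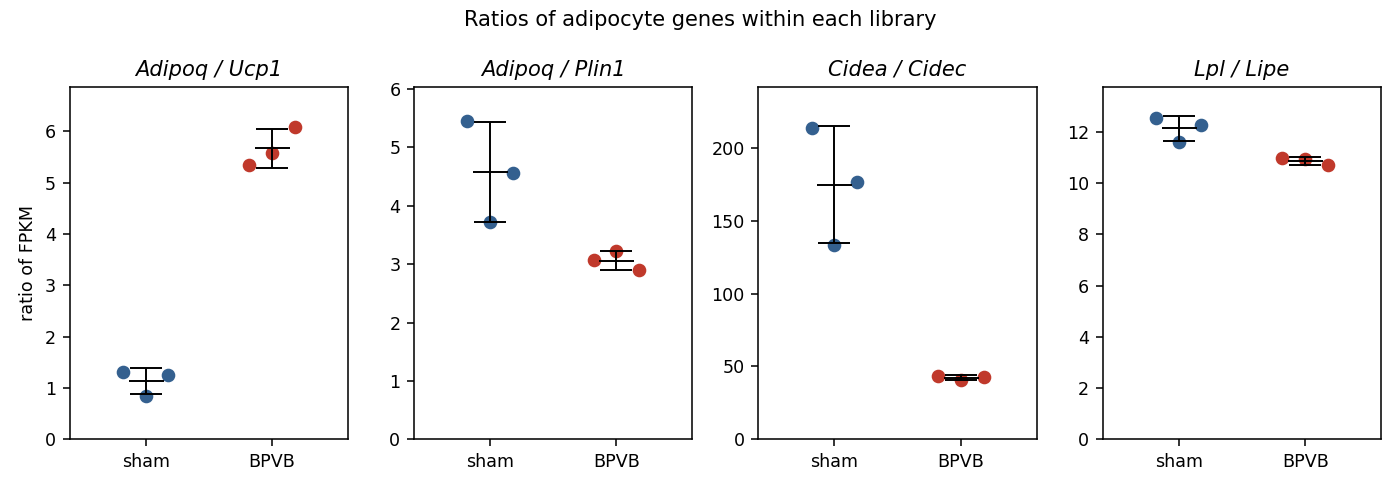
Ratios of the FPKM of adipocyte genes within each library, sham and BPVB, with the mean and SD of each group. The ratio of Adipoq to Ucp1 is near 1 in the sham libraries and between 5.34 and 6.09 in the BPVB libraries, and the other 3 ratios are lower in the BPVB group.

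By the root mean square difference of centred log2 values over the 6 libraries, the 5 genes outside the list most like Adipoq were C2 (difference 0.095), Nuf2 (0.11), Akap5 (0.13), Knstrn (0.13) and LOC291863 (0.13). C2 encodes complement component 2, and Nuf2 and Knstrn act at the kinetochore in mitosis. All 5 were nearer to Adipoq than Plin1 (0.21), Cidec (0.32) and Cfd (0.34). A total of 12148 genes, whose FPKM averaged 1 or more, were compared, and the likeness rests on 6 points that fall into 2 groups.

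Beside these genes, 8 lists of other fat cell genes were described, with 126 genes in the table and 121 tested. Of the 121, 50 (41.3%) were called higher and 18 (14.9%) lower, beside 17.2% and 14.3% of all tested genes, and the median log2 fold change was 0.17. The lists were chosen with earlier results of these data known, so these shares only describe them. No test of the lists as sets was made.

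Of the 14 genes of white adipocyte identity and adipokines, 9 were called higher and 2 lower (median log2 fold change 0.48). Retn, which encodes the adipokine resistin, rose the most. Its FPKM was 0.699, 0.354 and 1.12 in the sham libraries and 5.60, 6.05 and 6.59 in the BPVB libraries (log2 fold change 2.47, SE 0.21, adjusted p = 3.5e-05, limma). The ratio of the means was 8.41, and the log2 fold change of Retn ranged from 2.06 to 3.14 over the other settings. Rbp4, the carrier of retinol in blood, rose from 7.76 ± 0.72 to 17.4 ± 1.6 FPKM, and Aqp7, the glycerol channel of fat cells, from 3.59 ± 0.35 to 8.26 ± 0.21 (SD, n = 3 each). Sfrp5, a secreted inhibitor of Wnt signalling that white fat makes, went the other way and fell from 3.47 ± 0.67 to 1.41 ± 0.39 FPKM. Slc2a4, the insulin-regulated glucose transporter of fat and muscle, was the other gene called lower (log2 fold change -0.93) and was singled out after its value was seen.

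Of the 17 tested genes of brown and beige adipocytes, 2 were called higher and 4 lower (median log2 fold change -0.10). The genes with the largest falls were Cited1, a transcriptional co-regulator used as a beige marker (5.96 ± 0.18 FPKM in the BPVB group against 17.4 ± 0.68 in the sham group), Ckmt2, the mitochondrial creatine kinase of muscle (319 ± 5.0 against 834 ± 15), and Cox8b, a subunit of cytochrome c oxidase (857 ± 78 against 1339 ± 63; SD, n = 3 each). Ckmt2 and Cox8b are also abundant in heart muscle. The next 5 genes were singled out after their values were seen. Cpt1b, the muscle form of carnitine palmitoyltransferase, and Kcnk3, a potassium channel, both also expressed in heart, were the genes called higher (0.19 and 0.40 on the log2 scale). The coactivator Ppargc1a was lower (log2 fold change -0.38, adjusted p = 0.0049, limma). The brown fat regulator Prdm16 (0.08, but -0.031 after quantile normalization) and the thyroid hormone-activating enzyme Dio2 (-0.12) were not called.

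**Figure D4:**
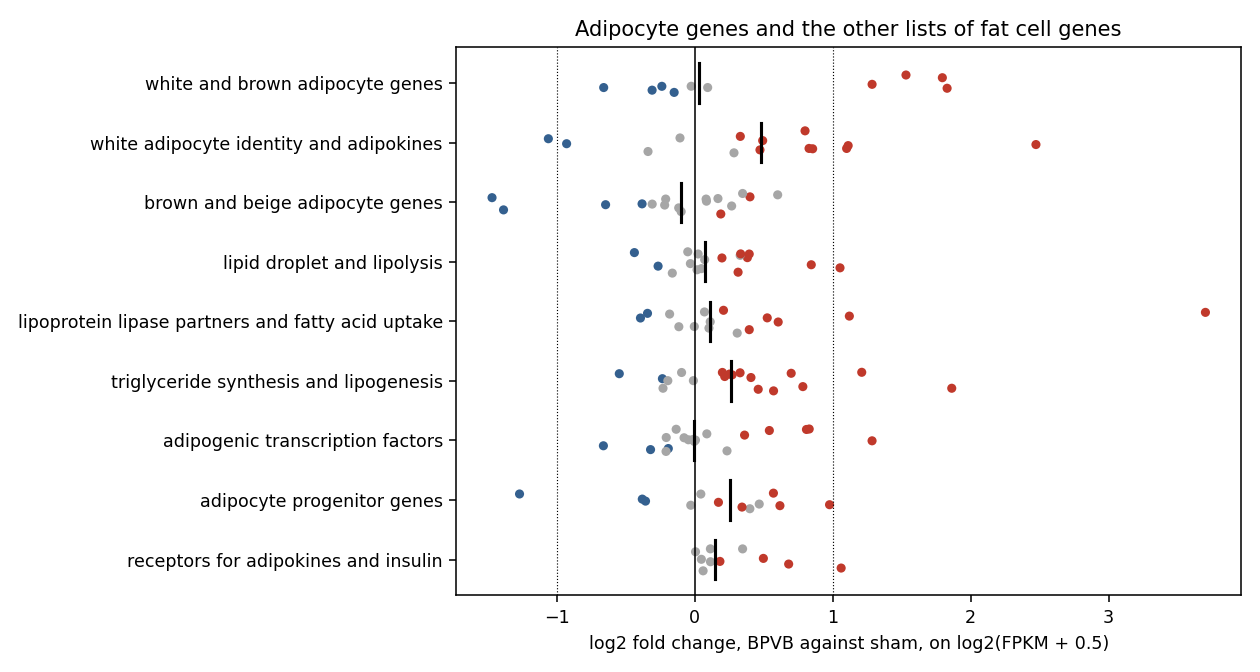
Log2 fold change (BPVB against sham) of each tested gene in the adipocyte list and the 8 other lists of fat cell genes. Red points were called higher, blue points lower and grey points not called, black lines are list medians, and dotted lines mark 1 and -1. The list of brown and beige genes has 4 called points on the left and 2 on the right, and the largest rise is that of Angptl4 at 3.70.

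Of 17 lipid droplet and lipolysis genes, 7 were called higher and 2 lower (list median 0.07). Pnpla2, which encodes the adipose triglyceride lipase that starts lipolysis, rose from 68.4 ± 3.5 to 123 ± 3.1 FPKM, and its inhibitor G0s2 from 14.9 ± 1.4 to 31.3 ± 1.6 (SD, n = 3 each). Fitm1, a droplet-forming protein of muscle, fell from 31.7 ± 3.1 to 23.2 ± 1.8 FPKM.

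Of 15 tested partners of lipoprotein lipase and fatty acid uptake genes, 6 were called higher and 2 lower (median 0.11). Angptl4 encodes a secreted inhibitor of lipoprotein lipase, and its FPKM was 2.69, 1.77 and 2.24 in the sham libraries and 36.1, 36.0 and 32.2 in the BPVB libraries (log2 fold change 3.70, SE 0.12, adjusted p = 1.1e-07, limma). Cd36, a fatty acid transporter, rose from 9.35 ± 0.52 to 21.7 ± 7.5 FPKM, with BPVB replicate 2 (30.3) above the other two. Apoc1, an apolipoprotein, was 0.61 higher on the log2 scale (adjusted p = 0.019, limma), and its adjusted p was 0.051 without sham replicate 1, 0.063 without sham replicate 2 and 0.19 with limma-voom on the recovered fragments. Fabp4, the fatty acid-binding protein of fat cells and capillary endothelium, was far higher than Adipoq in all libraries (1297 ± 23 FPKM in the BPVB group and 1299 ± 5.8 in the sham group) and was not called. Its log2 fold change of -0.00 turned to 0.13 after quantile normalization (adjusted p = 0.0011, limma) and to 0.029 with TPM scaling.

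Of 18 genes of triglyceride synthesis and lipogenesis, 12 were called higher and 2 lower (median 0.26). Pck1, the cytosolic PEPCK enzyme that feeds glycerol synthesis in fat cells, rose from 2.45 ± 0.25 to 10.3 ± 1.3 FPKM (log2 fold change 1.86, SE 0.11, adjusted p = 4.2e-06, limma). Thrsp, a lipogenic regulator, rose from 5.90 ± 1.3 to 14.1 ± 0.52 FPKM, and Agpat2, an enzyme of triglyceride assembly, from 3.35 ± 0.10 to 6.22 ± 1.3 (SD, n = 3 each).

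Of 18 adipogenic transcription factors, 5 were called higher and 3 lower (median -0.01). The 3 C/EBP genes of the list rose together. Cebpa, which acts with PPARγ in mature fat cells, rose from 2.09 ± 0.41 to 5.77 ± 0.32 FPKM (log2 fold change 1.29), Cebpb from 20.7 ± 2.3 to 37.2 ± 2.6 and Cebpd from 27.1 ± 3.0 to 47.9 ± 3.9 (SD, n = 3 each). Of 12 progenitor genes, 5 were called higher and 3 lower (median 0.26). Pdgfrb, a receptor of mural and progenitor cells, rose from 41.0 ± 1.0 to 63.2 ± 1.7 FPKM, F3, the tissue factor gene, from 20.1 ± 0.66 to 40.0 ± 0.44, and Cd24, a surface glycoprotein, fell from 2.79 ± 0.41 to 0.952 ± 0.60 (SD, n = 3 each).

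The last list held receptors for adipokines, genes of insulin signalling and complement genes that act downstream of factor D. Of its 10 genes, 4 were called higher (median 0.15) with limma. C3, on which the alternative pathway acts, rose from 1.19 ± 0.21 to 3.02 ± 0.21 FPKM, C5ar2, a complement peptide receptor, from 1.31 ± 0.22 to 2.42 ± 0.58, and Irs2, an insulin receptor substrate, from 4.0 ± 0.39 to 5.84 ± 0.33 (SD, n = 3 each). The adiponectin receptor genes Adipor1 (0.05) and Adipor2 (0.11) and the leptin receptor gene Lepr (0.06), singled out after their values were seen, were not called. Cdh13, which encodes T-cadherin, another receptor of adiponectin, was called higher (0.18 on the log2 scale, adjusted p = 0.0037, limma) and was also singled out after its value was seen.

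Many of these genes are also expressed outside fat, and markers of other cells moved with the groups. In bulk tissue, changes in the number of cells, in RNA per cell and in the amount of adjoining tissue sampled cannot be told apart. In its data on single PV cells, the paper considered epithelial cells likely to come from lung tissue and left them out. Beside the genes that rose, 8 of 8 alveolar type 2 markers were called higher, with a summed FPKM of 61.5 to 63.0 in the sham libraries and 552 to 598 in the BPVB libraries. Sftpc, the gene of surfactant protein C, rose from 36.6 ± 1.4 to 390 ± 22 FPKM (SD, n = 3 each). Of 9 macrophage markers in the table, 7 were called higher with limma (summed FPKM 71.0 to 73.2 in sham, 99.6 to 109 in BPVB), with Cd68 at 4.33 ± 0.83 and 9.70 ± 0.72 and C1qa at 24.2 ± 0.39 and 32.7 ± 3.5. Of 6 markers of lung lipofibroblasts, 4 were called higher (128 to 139 in sham, 171 to 178 in BPVB), with Inmt rising the most (2.85 on the log2 scale), while Gyg1, the highest of them, was not called. Plin2, in this list, is also in that of lipid droplet genes. The summed FPKM of 3 alveolar macrophage markers was 254 to 262 in sham and 263 to 283 in BPVB. Chil3 and Ear2 of this list were absent from the table, and Car4 was not found under that symbol. Nearly all of the sum was Cd9 (256 ± 4.2 in sham and 270 ± 11 in BPVB, SD, n = 3 each). Krt79 was called higher (adjusted p up to 0.057 in other settings, limma). Cd9, the highest of the 3 alveolar macrophage markers, was not called, with overlapping groups. Its adjusted p was as low as 0.0060 among the other settings (limma). The part of these cells in the rise of Adipoq, Plin1, Cidec and Cfd was not tested.

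Beside the genes that fell, 6 of 8 atrial cardiomyocyte markers were called lower and 2 higher, with a summed FPKM of 19111 to 19478 in the sham libraries and 14472 to 14893 in the BPVB libraries. Myl7, the atrial myosin light chain, fell from 8131 ± 74 to 5408 ± 166 FPKM (SD, n = 3 each), and its call was lost after quantile normalization (adjusted p = 0.31, limma). Of 7 capillary markers, 5 were called lower and 1 higher (2129 to 2143 in sham, 1793 to 1875 in BPVB). Cd300lg fell from 14.5 ± 0.54 to 1.81 ± 0.48 FPKM, and Fabp4, Cd36 and Gpihbp1 belong to this list and to that of the lipase partners. Of 6 pan-endothelial markers, 5 were called lower (725 to 732 in sham, 597 to 622 in BPVB), among them Pecam1 (-0.17) and Emcn (-0.52). The part of these cells in the fall of Lpl, Cidea and Ucp1 was not tested.

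Of 6 smooth muscle markers, 4 were called lower and 1 higher (summed FPKM 5017 to 5067 in sham, 4643 to 4708 in BPVB), with Tagln at -0.06 (not called in 8 of 16 other settings, and 0.019 after quantile normalization) and Myh11 at -0.30 on the log2 scale, and of 6 vein fibroblast markers, 3 were called higher and 2 lower (4703 to 4712 in sham, 5189 to 5221 in BPVB), with Pdgfra and Pi16 shared with the progenitor list, Col3a1 at 0.21 and Col1a1 at 0.36. Of 5 tested mesothelial markers, 1 was higher (Krt19, 0.99, the highest of them) and 3 lower (6.37 to 8.34 in sham, 5.93 to 7.67 in BPVB). Of 5 tested skeletal muscle markers, Acta1 was higher (1.39) and Ckm lower (-0.85), with sums of 715 to 726 in sham and 508 to 532 in BPVB. Both are also expressed in heart. Of the markers singled out after their values were seen, the fast skeletal troponin gene Tnnt3 had a mean FPKM of 4.06 in the BPVB group and 4.10 in the sham group, Mylpf 0.507 and 0.263, and the myosin gene Myh1 0.019 and 0.026.

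**Figure D5:**
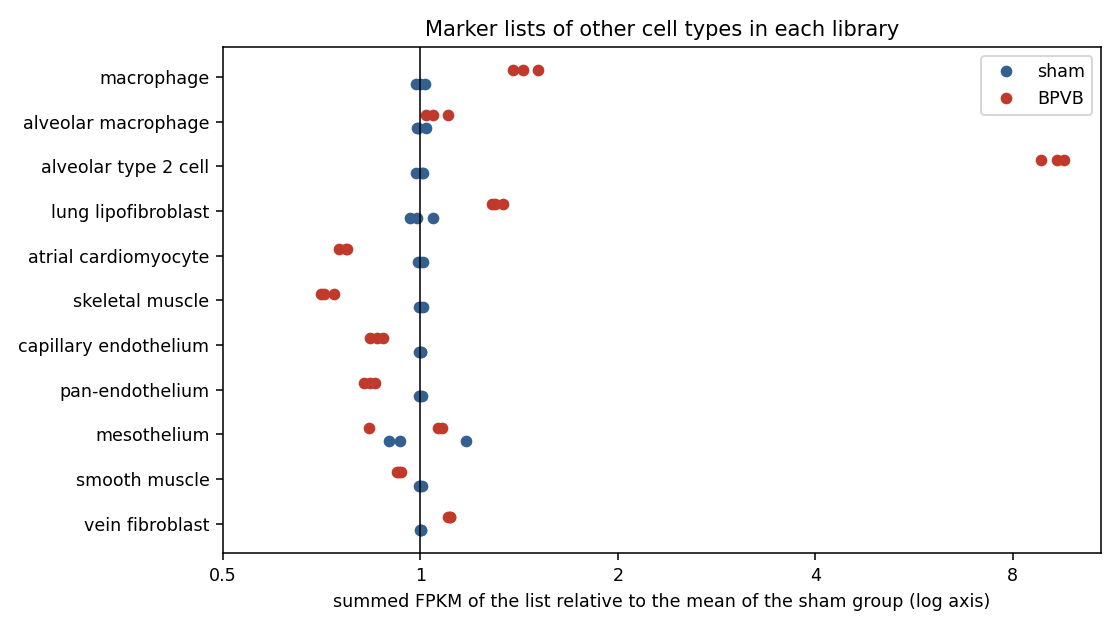
Summed FPKM of each marker list in each library, relative to the mean of the 3 sham libraries, on a log axis. Sham libraries are blue and BPVB libraries red. The BPVB points of the alveolar type 2 list lie near 9, those of the macrophage and lipofibroblast lists above 1, and those of the cardiomyocyte and endothelial lists below 1.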

How the data were processed

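Bulk RNA-seq of the PVs of 3 BPVB and 3 sham-operated rats was analysed. According to the study's methods, fastp served for trimming, HISAT for mapping and HTSeq-count for counting, and the authors deposited the result as FPKM, with no raw counts in the table used here. The submitters' processing notes instead name HISAT2 2.0.5, StringTie 1.3.3b, featureCounts 1.5.0-p3 and DESeq2 1.20.0. The genome build and strand setting are not given in the sources used here.

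FPKM is not a count, so log2(FPKM + 0.5) was tested with limma 3.58.1 under R 4.3.3 (eBayes with trend, two-sided) for genes averaging at least 0.1 FPKM, with Benjamini-Hochberg adjustment over all of them. The DEG thresholds were those of the study. On simulated data, the fit called 81.8% of tested 2-fold and 92.0% of tested 4-fold changes with the right sign, and 0.074% of unchanged genes. Fragments were recovered from the steps of the FPKM as the smallest whole numbers that give the 6 values of a gene (100.0% of the genes within a relative tolerance of 1e-10). The gene lengths these gave were whole for 99.6% of genes with over 500 fragments, and for 99.98% of all genes after multiplying the fragments by the smallest factor that made the length whole. The list genes named are, by rule, DEGs (at most 4 a list), then the largest called changes up to 3. For markers they are the highest gene and the one with the largest change. The members and lists were chosen with earlier results of these data known.

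Alternatives were pseudocounts of 1 and 0.1, a mean FPKM of at least 1 or no filter, median-of-ratios, TPM and quantile scaling, a block for the replicate number, eBayes in robust mode, limma-voom on the recovered fragments (at least 10 per gene) and leaving out each library. P-values measure the spread between these 3 rats per group. Python 3.11.15, pandas 2.3.3, numpy 2.4.6 and matplotlib 3.10.9 were used for the other steps.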

Additional observations from a re-analysis of the deposited data

How the results depend on the processing

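Over the 16 alternatives, 4 adipocyte genes stayed called higher, between 3 and 4 were called lower, and 4 passed the DEG thresholds in each. Adipoq, Plin1, Cidec, Cfd, Cidea, Ucp1 and Lpl kept their direction and call in all 16. The log2 fold change of Adipoq ranged from 1.36 without sham replicate 2 to 1.72 without sham replicate 3. That of Cidec was 1.02 with a pseudocount of 1 and 1.77 with limma-voom, and that of Plin1 ranged from 1.59 to 2.17 in the same settings. The log2 fold change of Lipe lost its call with TPM scaling (adjusted p = 0.090, limma), with the replicate block (0.071) or in 5 of the 6 fits without 1 library. The log2 fold change of Lep ranged from -0.14 to 0.094 when 1 library was left out, was above 0 without BPVB replicate 1 (0.043), BPVB replicate 3 (0.026) or sham replicate 1 (0.094), and was not tested at a mean FPKM of at least 1. That of Fabp4 was 0.029 with TPM scaling, 0.13 after quantile normalization and -0.016 to 0.0094 when 1 library was left out, being above 0 without BPVB replicate 1 or sham replicate 3. Tagln turned to 0.019 after quantile normalization. That of Prdm16 was -0.031 after quantile normalization and -0.022 to 0.19 when 1 library was left out, being below 0 without sham replicate 3. Of the 54 called genes outside the adipocyte list that are named, 50 kept their direction and call throughout, and Apoc1, Krt79, Myl7 and Tagln did not. The cause of these shifts was not tested. Same-numbered libraries had correlations of deviations from 0.014 to 0.025. Each correlated best with its own number, but these values are very small and do not show a pairing, and the design gives none. With the replicate block, 2466 genes were called higher and 2073 lower, against 2605 and 2170 without it, and among the adipocyte genes it changed no call but that of Lipe. Calls over all genes were 2362 higher and 2454 lower with median-of-ratios scaling, 2354 and 2434 after quantile normalization and 2999 and 1888 with TPM scaling. By the DEG thresholds, 340 genes were up and 156 down, against 611 and 290 when 0.1 was the pseudocount, 227 and 98 when it was 1, and 715 and 407 with limma-voom.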
